A study of Mus musculus with 6 samples.

Results

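The apolipoprotein L genes of the mouse were described in serrated polyps of the cecum and in the normal cecum around them. The 6 genes described in full are Apol10a, Apol10b, Apol7a, Apol9a, Apol9b and Apol6, among 37991 gene identifiers in the counts. They were chosen by symbol with their polyp against surrounding tissue values already known, so their levels and differences in that comparison are a description, and no p-value is given for them. A further 8 Apol genes were counted in the same libraries and are given for context. RNA was sequenced from 6 libraries, 1 polyp and 1 piece of surrounding distal cecum from each of 3 mice, numbered 1119, 1192 and 1199. All 3 were HBUS mice sampled at 60 weeks, whose intestinal epithelium expresses 2 transgenes, one for HB-EGF, a growth factor, and one for US28, a chemokine receptor of viral origin. Both tissues carried both transgenes, so the comparison is between tissues of the same transgenic animal, and no animal without the transgenes was included.

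Apolipoprotein L proteins are lipid-binding proteins with amphipathic helices that can insert into membranes. The best-known member is human APOL1, a serum protein that lyses African trypanosomes. Human APOL genes are inducible by interferons, and overexpressed human APOL6 is known to trigger cell death. In the mouse the family was expanded by local duplication. Mouse Apol9a and Apol9b are interferon-stimulated genes with antiviral activity, their proteins have been described to bind gut bacteria of the order Bacteroidales, and mouse Apol7c has been studied in dendritic cells.

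Because the family was expanded by duplication and holds interferon targets, promoters of the members are shown for how alike the copies are and where an interferon motif stands. The next lines give 150 bases around the transcription start of the 5 members found in the RefSeq promoter table (GRCm38.p6), running from upstream of the start to base 10 of the transcript, 5′ to 3′ along the gene. Capitals mark the letters of the interferon-stimulated response element (ISRE, a pair of GAAA blocks parted by any 2 bases, searched on both strands and read here on the opposite strand). Apol9a is at chr15:77411071-77411220 (minus strand), Apol9b at chr15:77728932-77729081 (plus strand), Apol10a at chr15:77476907-77477056 (plus strand), Apol10b at chr15:77596116-77596265 (minus strand) and Apol7a at chr15:77399101-77399250 (minus strand).
Apol9a: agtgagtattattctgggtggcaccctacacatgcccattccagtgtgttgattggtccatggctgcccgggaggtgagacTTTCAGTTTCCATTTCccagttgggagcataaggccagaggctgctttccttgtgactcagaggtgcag
Apol9b: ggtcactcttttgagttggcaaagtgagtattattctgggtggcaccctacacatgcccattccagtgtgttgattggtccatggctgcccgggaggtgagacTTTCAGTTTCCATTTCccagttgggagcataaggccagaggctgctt
Apol10a: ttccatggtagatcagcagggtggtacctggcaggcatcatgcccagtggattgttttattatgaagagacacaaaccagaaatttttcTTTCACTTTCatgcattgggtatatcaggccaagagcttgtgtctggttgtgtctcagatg
Apol10b: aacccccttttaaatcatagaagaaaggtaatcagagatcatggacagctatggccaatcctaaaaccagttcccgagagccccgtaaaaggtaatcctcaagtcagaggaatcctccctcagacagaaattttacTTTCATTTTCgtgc
Apol7a: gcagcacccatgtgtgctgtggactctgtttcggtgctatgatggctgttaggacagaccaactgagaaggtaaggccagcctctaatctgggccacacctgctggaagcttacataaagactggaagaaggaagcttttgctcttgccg

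Apol9a and Apol9b share an unbroken core around the capitals, where a pair of ISRE matches overlap in a single run of letters. Over the whole 300-base window, their promoters were 86.3% identical in alignment, with 278 identical bases in 322 columns. The other columns were gaps and not mismatches, because the windows are offset by their annotated starts. The first ISRE match began at base -59 in Apol9a and at base -37 in Apol9b. Where the windows overlap they were thus the same sequence. Their coding sequences (930 bases each) were 98.5% identical. Apol10a had 1 ISRE match at bases -51 to -42, and Apol10b had 1 at bases -4 to 6, across the start itself. The Apol10a and Apol10b coding sequences were 71.8% identical, while the Apol10a promoter was closest to that of Apol11b, at 89.0%. Apol7a held no ISRE match in its window. A second interferon motif, the gamma-activated site (GAS, TTC and GAA parted by any 3 bases, searched on both strands), matched in 1 of the 5 members, Apol10a, as TTCGTGGAA at bases -241 to -233.

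ISRE letters stood in 4 of the 5 member windows and in 8 of 12 windows of the whole family, against 3.49% of all 27025 promoters of the same length. GAS letters stood in 4 of the 12 family windows, against 8.42% of all promoters. The family windows are not independent, since the Apol11a and Apol11b promoters were 99.3% identical and those of Apol10a and Apol11b 89.0%. A site shared by copies is therefore counted more than once. Apart from Apold1, the GAS matches were in Apol10a, Apol11a and Apol11b. A match to these letters is a description of the sequence and does not show that a factor binds there. Among the Apol genes outside the members, Apol7c and Apol7e each had a pair of overlapping ISRE matches.

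**Figure D1:**
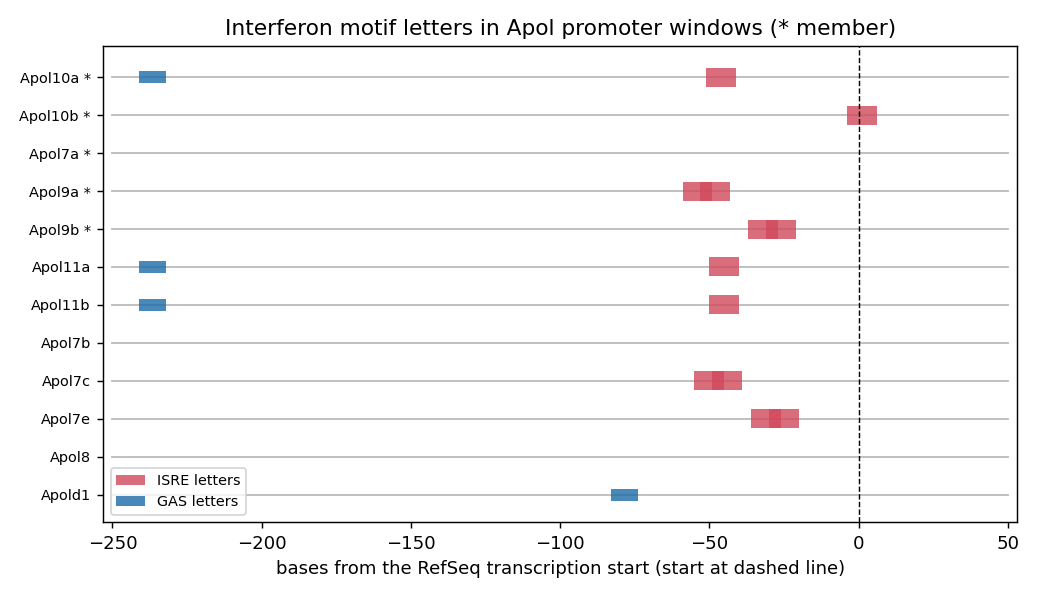
Positions of ISRE letters (red) and GAS letters (blue) in the promoter windows of 12 Apol genes, in bases from the RefSeq transcription start (dashed line); asterisks mark the 5 members in the table. ISRE letters stand before the start in 7 genes, lie across the start in Apol10b, and are missing from Apol7a, Apol7b, Apol8 and Apold1.

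In the libraries themselves, total counts ran from 6632645 to 13350119. The 2 mitochondrial rRNA genes took 46.3% to 75.3% of these, so the rest of the genes shared 1852065 to 5096066 counts. The polyp library of mouse 1192 had a count for 12867 genes, the fewest, and the other 5 libraries had a count for 15045 to 17301. Levels below are normalized CPM (library-scaled counts corrected for composition), and 3 counts correspond to 0.214 to 0.676 CPM. Fewer cells of a type and less RNA per cell cannot be told apart in these whole-tissue samples.

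Apol10a, which lies inside the gene cluster, had the highest level of any Apol gene in every library, also per length, and was lower in the polyp in all 3 mice. It had 13.4, 10.9 and 20.2 CPM in the polyps of mice 1119, 1192 and 1199, against 49.2, 45.6 and 60.4 CPM in their surrounding cecum. The raw counts behind these were 111, 132 and 142 in polyps and 519, 640 and 268 in surrounding cecum. Every polyp lay below every surrounding sample, with a wide gap between the highest polyp and the lowest surrounding sample. The mean was 14.8 ± 4.82 CPM in polyps and 51.7 ± 7.74 CPM in surrounding cecum (SD, n = 3 each). The fitted log2 fold change of polyp over surrounding cecum was -1.84 ± 0.19 (SE from edgeR, 3 pairs), or 3.58 times lower in polyps, and the differences within mice were -1.86, -2.05 and -1.57.

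Apol7a had 5.20, 9.38 and 10.2 CPM in the polyps of mice 1119, 1192 and 1199, against 7.10, 14.7 and 28.4 CPM in surrounding cecum. The polyp was lower within each mouse, but the tissues overlapped across mice, because surrounding cecum of mouse 1119 lay below the polyps of the other 2. The mean was 8.27 ± 2.70 CPM in polyps and 16.7 ± 10.8 CPM in surrounding cecum (SD, n = 3 each), and the log2 fold change was -0.86 ± 0.30 (SE, 3 pairs). The difference within mice ran from -0.44 in mouse 1119 to -1.45 in mouse 1199.

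Apol6, the member set apart from the rest of the cluster by Rbfox2, had 8.10, 6.91 and 7.54 CPM in polyps of mice 1119, 1192 and 1199, against 9.19, 13.7 and 13.3 CPM in surrounding cecum. All polyps lay below all surrounding samples, though in mouse 1119 the values were close. The 3 polyps varied little, at 7.52 ± 0.596 CPM, while surrounding cecum averaged 12.1 ± 2.51 CPM (SD, n = 3 each). The log2 fold change was -0.67 ± 0.31 (SE, 3 pairs), with differences of -0.18, -0.97 and -0.80 within mice 1119, 1192 and 1199.

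The near-identical pair Apol9a and Apol9b, the interferon-stimulated antiviral members, differed from mouse to mouse. Apol9b had 2.54, 0 and 2.28 CPM in polyps of mice 1119, 1192 and 1199, against 1.70, 4.84 and 7.66 CPM in surrounding cecum. Apol9a had 0.967, 0 and 1.56 CPM in polyps, against 0.852, 4.34 and 1.80 CPM in surrounding cecum. In mouse 1119 both genes were slightly higher in the polyp, in mouse 1199 both were lower, and in mouse 1192 neither had a single count in the polyp. A count of 0 in that library allows up to 3 counts, or 0.247 CPM, so that in mouse 1192 Apol9b was at least 19.6-fold lower and Apol9a at least 17.6-fold lower in the polyp than in surrounding cecum. That library is also the one with the fewest genes detected, and the part this plays in the 0 counts was not tested.

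The fitted log2 fold change of Apol9b was -1.95 ± 1.27 (SE, 3 pairs), with a wide error for its size. It rested on mouse 1192: without that mouse it was -0.65, and without mouse 1119 it was -3.46. Apol9a did not pass the filter on low counts. Counts of the pair were also added, since 52.3% of the distinct 50-base stretches of Apol9b transcripts, and 16.5% of those of Apol9a, occur in another Apol gene and reads from them can be split between copies. The sum was 3.51, 0 and 3.84 CPM in polyps, against 2.56, 9.18 and 9.47 CPM in surrounding cecum, with a log2 fold change of -1.84 ± 1.39 (SE, 3 pairs). Adding the copies left the same picture, with the polyp of mouse 1192 alone at 0. Any reads left uncounted because they match both copies would be missing from the sum too, and this was not tested.

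Apol10b was at or near the detection floor in 4 of the 6 libraries. It had 0, 3.21 and 0.284 CPM in polyps of mice 1119, 1192 and 1199, against 0.284, 0.997 and 0.225 CPM in surrounding cecum. Most of its counts, 39, came from the polyp of mouse 1192, the same library that had none for Apol9a or Apol9b, and surrounding cecum of that mouse had 14. Apol10b did not pass the filter on low counts. When its counts were added to those of Apol10a, the log2 fold change of the sum was -1.72 ± 0.18 (SE, 3 pairs), close to that of Apol10a alone. With 59 counts against 1812 for Apol10a, Apol10b could move the sum little. Of the distinct 50-base stretches of Apol10a, 16.9% occur in another Apol gene, 3.99% in Apol10b and 8.58% in Apol10c-ps, which is not among the 14 counted genes. How reads from these stretches were assigned was not tested.

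**Figure D2:**
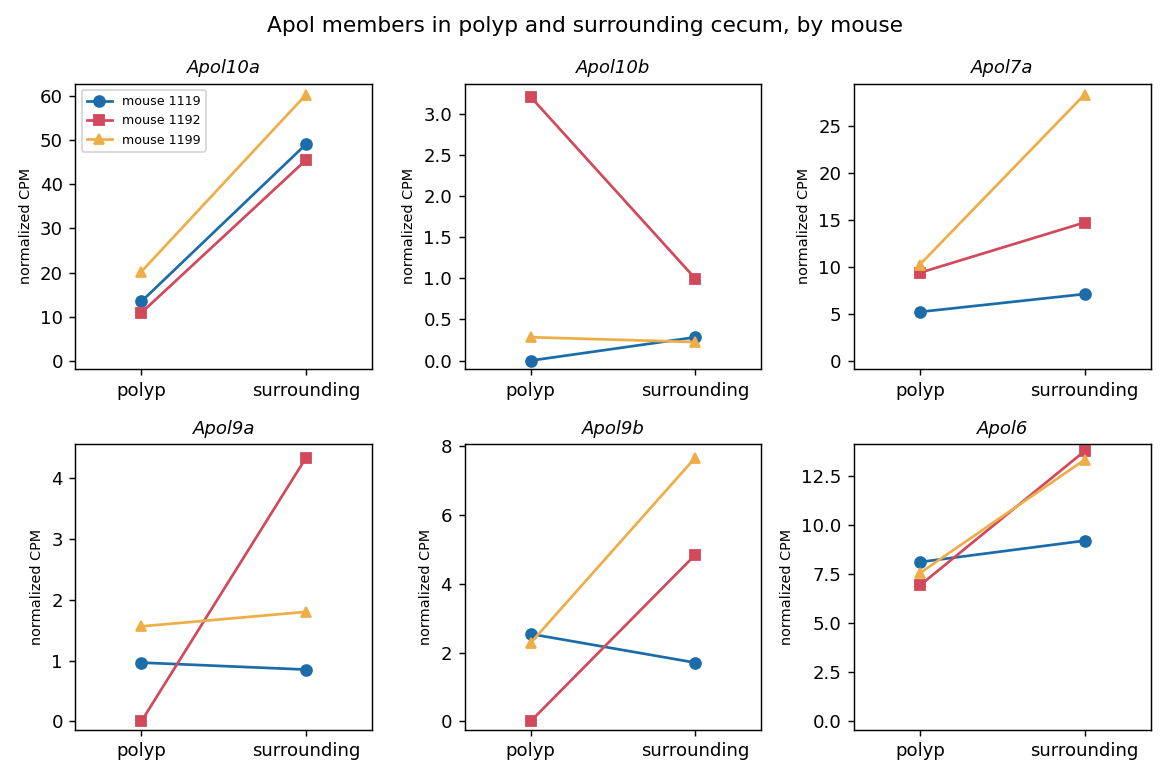
Normalized CPM of the 6 members in polyp (left in each panel) and surrounding cecum (right), with 1 line per mouse and an axis of its own for each gene. Apol10a is lower in the polyp of all 3 mice, with 10.9 to 20.2 CPM in polyps and 45.6 to 60.4 CPM in surrounding cecum. The lines of Apol9a, Apol9b and Apol10b rise in some mice and fall in others.

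Of the 6 members, 4 passed the filter on low counts and 1, Apol10a, passed the threshold in the fit across all genes (adjusted p under 0.05, edgeR), in the lower direction. Over all 10960 genes tested, 2.76% passed in either direction, 1.04% lower and 1.72% higher in polyps. A lower polyp in all 3 mice was seen for 3 of the 4 (Apol10a, Apol7a and Apol6), against 18.6% of all genes tested, and a higher one for 0 of the 4, against 19.7%. Polyps that all lay below all surrounding samples were seen for 2 of the 4 (Apol10a and Apol6), against 8.58%, and polyps that all lay above for 0 of the 4, against 9.84%. The median log2 fold change of the 4 was -1.35, and that of all 6 tested Apol genes was -0.76, against -0.02 over all genes tested. The members were picked from this same comparison, so nothing is read from these counts.

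**Figure D3:**
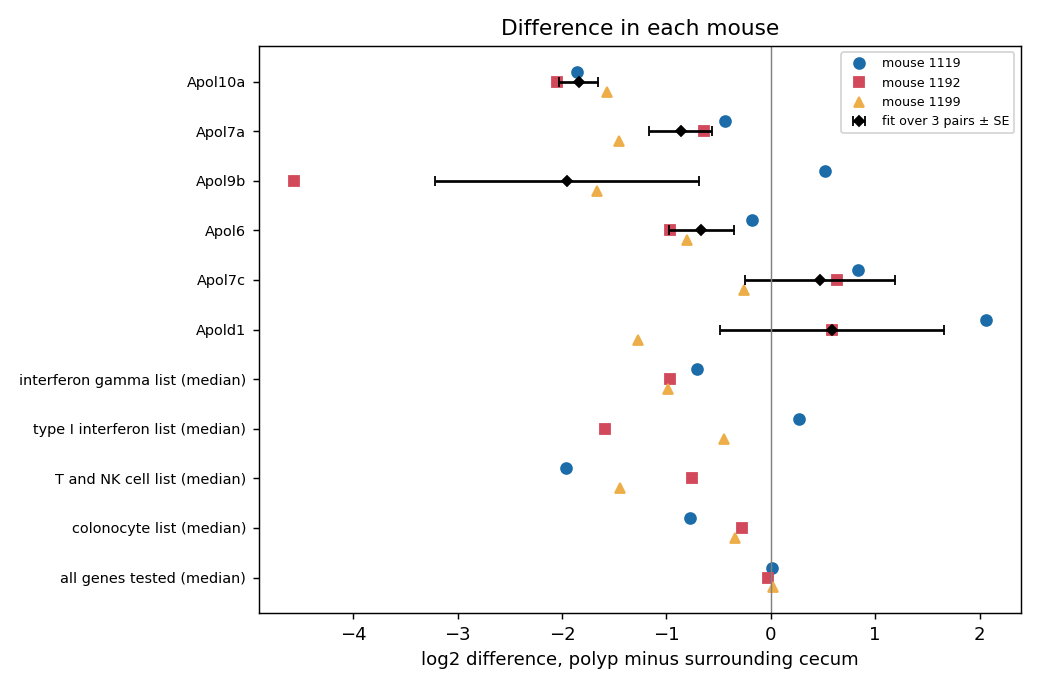
Log2 difference of polyp minus surrounding cecum within each mouse (coloured points) and from the fit over 3 pairs with its SE (black), for the 6 tested Apol genes, and the median within each mouse for 4 gene lists and for all genes tested. The 3 mice lie between -2.05 and -1.57 for Apol10a and between -4.57 and 0.52 for Apol9b, whose lowest point comes from a library with 0 counts and depends on the prior count of 2 used for the log scale.

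Levels were also compared between members per kilobase of exon, on the CPM per kb scale. In polyps Apol10a had 4.89 ± 1.59 CPM per kb, Apol7a 2.73 ± 0.890, Apol6 1.67 ± 0.132, Apol9b 0.881 ± 0.767, Apol10b 0.501 ± 0.764 and Apol9a 0.142 ± 0.133 (SD, n = 3). In surrounding cecum Apol10a had 17.0 ± 2.55 CPM per kb, Apol7a 5.53 ± 3.56, Apol6 2.68 ± 0.558, Apol9b 2.60 ± 1.64, Apol9a 0.392 ± 0.303 and Apol10b 0.216 ± 0.185. The order of the upper 4 was the same in both tissues. Apol10a stood clear of the others in surrounding cecum, while the SD ranges of Apol7a, Apol6 and Apol9b overlapped there. In polyps the gap between Apol10a and Apol7a was within the sum of their SDs. These SDs are between mice. Within each polyp Apol10a was above Apol7a, at 4.42 against 1.72, 3.58 against 3.10 and 6.66 against 3.38 CPM per kb in mice 1119, 1192 and 1199. Within each surrounding sample Apol7a was above Apol6 and Apol9b.

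Summed over all 14 Apol genes, the family took 38.7, 33.3 and 45.1 CPM in polyps of mice 1119, 1192 and 1199, against 71.5, 87.3 and 119.5 CPM in surrounding cecum. The sum was lower in the polyp by 1.85, 2.62 and 2.65 times in the 3 mice. Without Apol10a, the other 13 genes summed to 25.3, 22.5 and 24.9 CPM in polyps, against 22.4, 41.7 and 59.1 CPM in surrounding cecum. The remainder was lower in the polyp of mice 1192 and 1199. In mouse 1119 its direction turned on Apold1, the gene outside the cluster: without Apol10a and Apold1 the sum was 21.0 CPM in the polyp and 21.5 CPM in surrounding cecum.

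Apol10a made up 34.7% (29.5% to 40.2%), 32.6% (28.0% to 37.4%) and 44.8% (39.2% to 50.5%) of all Apol counts in polyps of mice 1119, 1192 and 1199. In surrounding cecum of the same mice it made up 68.7% (65.3% to 72.0%), 52.2% (49.4% to 55.0%) and 50.6% (46.2% to 54.9%). The brackets are 95% Clopper-Pearson intervals and cover counting error only. The shares are of raw counts and are not corrected for exon length. The share was below that of the paired tissue in each mouse, and in mouse 1199 the intervals overlapped.

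**Figure D4:**
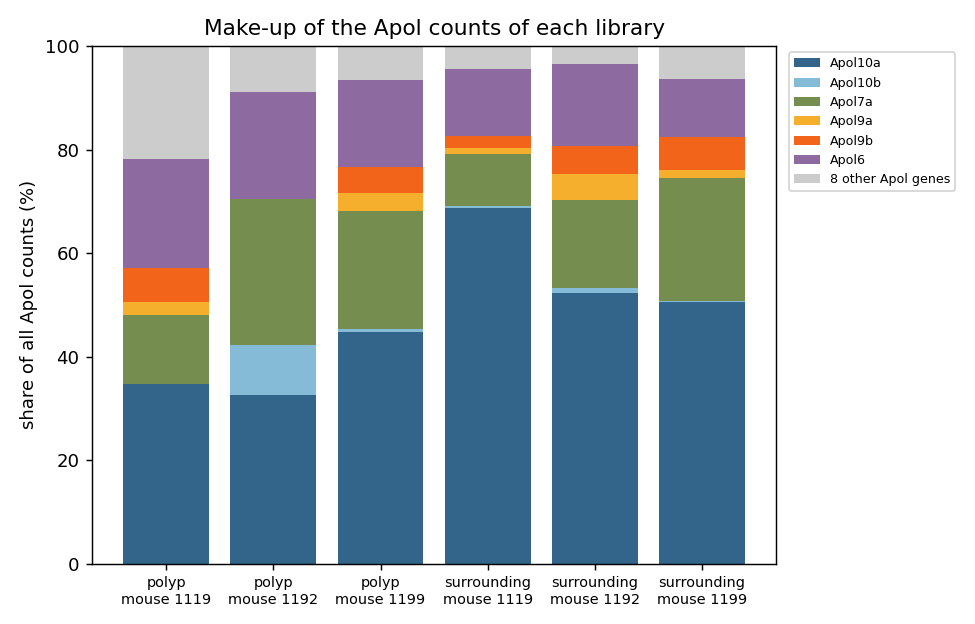
Share of each Apol gene in all Apol counts of a library (%), polyps on the left and surrounding cecum on the right. Apol10a (dark blue) takes 32.6% to 44.8% in polyps and 50.6% to 68.7% in surrounding cecum, and Apol10b (light blue) is visible as a band in the polyp of mouse 1192.

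Among the 8 Apol genes outside the members, 2 had enough counts to be tested and neither passed. Apol7c, the dendritic cell gene, had 4.23, 1.89 and 1.85 CPM in polyps of mice 1119, 1192 and 1199, against 2.27, 1.14 and 2.25 CPM in surrounding cecum. Its log2 fold change was 0.47 ± 0.72 (SE, 3 pairs, adjusted p = 0.819 in edgeR). Apold1, a related gene outside the cluster that is known from endothelial cells, had 4.23, 1.07 and 0.995 CPM in polyps and 0.852, 0.641 and 2.70 CPM in surrounding cecum, with a log2 fold change of 0.59 ± 1.07 (SE, 3 pairs, adjusted p = 0.853 in edgeR). For both, 0 genes were called by edgeR, DESeq2 or limma-voom, and 0 had an unadjusted p under 0.05.

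The other 6 Apol genes were nearly silent. Apol7e had 0 counts in all 3 polyps, against 0, 18 and 3 counts in surrounding cecum of mice 1119, 1192 and 1199. Apol7b had 0 counts in polyps and 5 in surrounding cecum, all from mouse 1199, and Apol11b had 0 in polyps and 4 there from the same mouse. Apol8 had 1 count in the polyp of mouse 1199 and 1 in surrounding cecum of mouse 1119. Apol7d and Apol11a had 0 counts in all 6 libraries.

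By GENCODE M21, 12 of the 14 Apol genes lie in order on mouse chromosome 15 as Apol6, Apol7a, Apol9a, Apol7b, Apol10a, Apol11a, Apol7c, Apol10b, Apol11b, Apol7e, Apol9b and Apol8. Apold1 lies on another chromosome. The order takes in coding genes only, and Apol7d, for which no coding sequence was found, was not placed. Apol6 is parted from the rest by Rbfox2, which encodes a splicing factor, and the cluster ends at Myh9, which encodes nonmuscle myosin heavy chain. The bordering genes did not pass the test. Rbfox2 had a log2 fold change of 0.02 ± 0.22 (SE, adjusted p = 0.975 in edgeR), Myh9 one of 0.22 ± 0.15 (adjusted p = 0.564) and Txn2, a mitochondrial thioredoxin, one of 0.06 ± 0.25 (adjusted p = 0.942). Apol7b and Apol11a, the direct neighbours of Apol10a, had 5 and 0 counts over all 6 libraries. Exons of Apol6 overlap Mb on the opposite strand, and an intron of Apol7a holds Gm20688, but both of these had 0 counts.

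Since some apolipoprotein L genes are known interferon targets, the Apol values were set beside lists of interferon genes. In the interferon gamma list, 18 of 22 tested genes had log2 fold changes below 0 and 4 above. The median was -0.99, with medians of -0.71, -0.96 and -0.98 within mice 1119, 1192 and 1199. Of the list, 4 genes were called lower and 0 higher, against 1.04% and 1.72% of all genes tested. The 4 were Ifi47 (-1.98 ± 0.32, adjusted p = 0.0176) and Irgm2 (-1.09 ± 0.21, adjusted p = 0.0349), GTPases of intracellular defence, Ido1 (-2.26 ± 0.38, adjusted p = 0.0213), a tryptophan-degrading enzyme, and Gbp2 (-1.56 ± 0.33, adjusted p = 0.0474), a guanylate-binding protein (SE, 3 pairs, edgeR). All 4 calls were lost without mouse 1199 or when the pairing by mouse was left out of the fit, while without mouse 1119 the list had 2 lower calls and 1 higher, and without mouse 1192 it had 3 lower calls. Ifi47 had 7.74, 3.45 and 11.7 CPM in polyps, against 16.5, 20.6 and 57.0 CPM in surrounding cecum. Surrounding cecum of mouse 1199 was the highest library for Ifi47, as it was for Apol7a, Apol9b and Apol10a. That library also had the largest share of mitochondrial rRNA (75.3%), the fewest counts for other genes (1852065) and the smallest TMM normalization factor (0.593). The part this plays in its high values was not tested.

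In the type I interferon list, 0 of 33 tested genes were called by edgeR, 7 had an unadjusted p under 0.05, all lower in polyps, and DESeq2 and limma-voom each called 1, lower. With no filter on low counts, edgeR called 6 of 34, all lower, and with upper-quartile normalization or a mean of at least 5 CPM it called 1. The median log2 fold change was -0.61, with 30 genes below 0 and 3 above. The medians within mice were 0.27, -1.58 and -0.45 in mice 1119, 1192 and 1199, against 0.01, -0.02 and 0.02 over all genes tested. Mouse 1119 was thus above 0 and mouse 1192 lowest, the order of the 3 mice also seen for Apol9b and Apol6 and not for Apol10a or Apol7a. The gene with the smallest p was Helz2, a helicase co-regulator, with 46.2, 69.1 and 59.4 CPM in polyps, against 92.8, 115.2 and 80.0 CPM in surrounding cecum (log2 fold change -0.73 ± 0.16, adjusted p = 0.0559).

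Of 14 tested genes for interferon ligands, receptors and signalling, 0 passed in edgeR, DESeq2 or limma-voom, 1 had an unadjusted p under 0.05, and the median log2 fold change was -0.16. That gene was Ifnlr1, the interferon lambda receptor, at 0.59 ± 0.23 (adjusted p = 0.287). Ifng, which encodes interferon gamma itself, had 0 counts in all 6 libraries, as did Ifnb1, Ifnl2 and Ifnl3. The interferon-list promoters held ISRE letters in 14 of 25 type I genes and 11 of 21 gamma genes, shares of 56.0% and 52.4%, beside 8 of 12 for the Apol family, whose windows include near-identical copies.

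**Figure D5:**
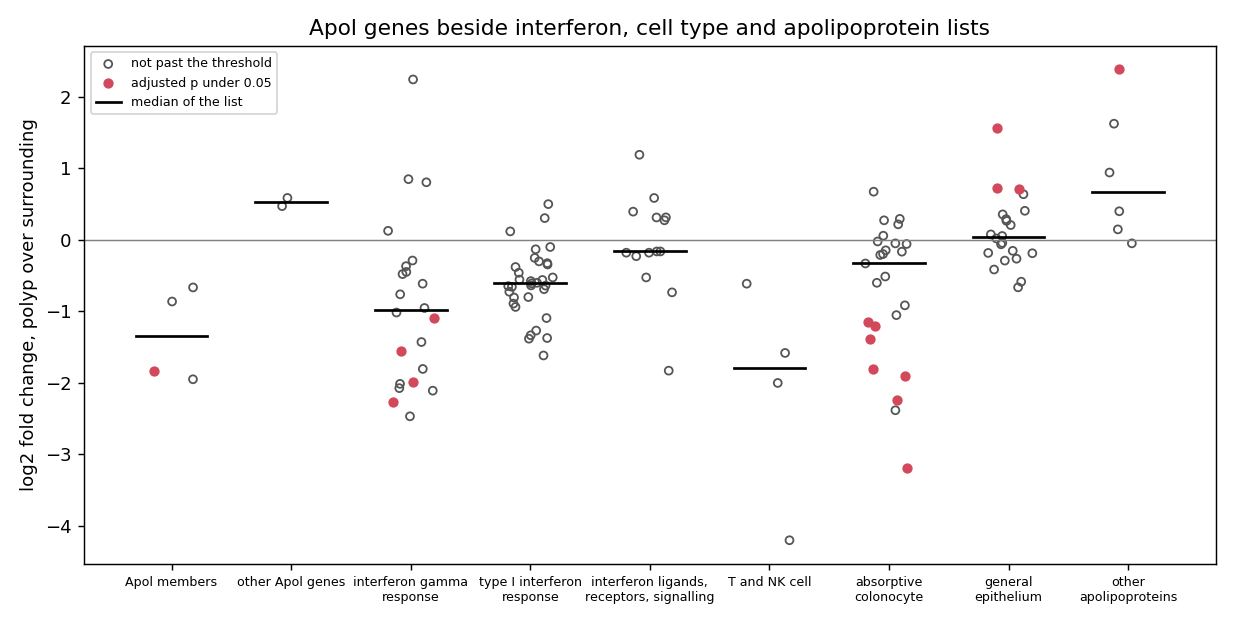
Log2 fold change of polyp over surrounding cecum for each tested gene of the Apol family and of the interferon, cell type and apolipoprotein lists (open circles did not pass, filled circles had an adjusted p under 0.05, and bars are list medians). The 4 tested Apol members, chosen with these values known, have a median of -1.35, all 6 tested Apol genes one of -0.76, the interferon gamma list -0.99, the type I list -0.61 and the general epithelium list 0.04.

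Markers of cell types that could carry Apol RNA also differed between the tissues. Of 25 absorptive colonocyte genes, 20 had log2 fold changes below 0 and 5 above, with a median of -0.33. In edgeR 7 were called lower and 0 higher, against 1.04% and 1.72% of all genes tested. They were led by the chloride exchanger Slc26a3 (-2.24 ± 0.22, adjusted p = 0.00523) and the magnesium channel Trpm6 (-1.90 ± 0.22, adjusted p = 0.00827). The list summed to 14270, 18704 and 19334 CPM in polyps of mice 1119, 1192 and 1199, against 21087, 19542 and 26106 CPM in surrounding cecum. Of 22 general epithelial genes, 3 were called higher (Krt18, Krt19 and Krt8) and 0 lower, with a median log2 fold change of 0.04. This list summed to 8544, 8082 and 10055 CPM in polyps, against 6449, 5582 and 8458 CPM in surrounding cecum, but 10 of the 22 genes had log2 fold changes below 0, and the list's medians within mice 1119, 1192 and 1199 were -0.10, 0.25 and -0.02. Without mouse 1119 or mouse 1199, 4 and 3 colonocyte genes were called, and leaving out any 1 mouse left 1 epithelial call. Without the pairing, 3 colonocyte and 0 epithelial genes were called.

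T and NK cell markers, from cells that make interferon gamma, were sparse. Of 17 counted, 4 could be tested (Gzma, Gzmb, Cd3e and Itgae), all 4 had log2 fold changes below 0 (median -1.79), and none passed in edgeR. Of the 4, 1 (Gzma) had an unadjusted p under 0.05, and DESeq2 called 1 while limma-voom called 0. The list summed to 6.53, 8.06 and 7.54 CPM in polyps, against 11.8, 13.9 and 22.5 CPM in surrounding cecum, and Tbx21 had 0 counts in all 6 libraries. Of 9 tested dendritic cell and macrophage genes, 0 passed in edgeR, DESeq2 or limma-voom, 2 had an unadjusted p under 0.05, and the median was 0.43. The whole list of 18 genes summed to 49.1 to 74.7 CPM in polyps and 30.9 to 56.8 CPM in surrounding cecum. Of the 18, 2 had 0 counts in all 6 libraries, Batf3 and Cd209a, which mark dendritic cells. Other dendritic cell markers of the list did have counts. Zbtb46 had 20, 8 and 11 in polyps of mice 1119, 1192 and 1199, against 9, 0 and 3 in surrounding cecum. Clec9a had 4, 0 and 3 in polyps, against 4, 6 and 3.

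Stromal markers moved in opposite directions. Of 11 tested fibroblast genes, 5 were called higher, with a median of 1.35. Among smooth muscle genes, 2 of 10 were called lower, with a median of -2.11. None of the endothelial genes (0 of 8) passed in edgeR, DESeq2 or limma-voom, with a median of 1.36 and 3 at an unadjusted p under 0.05. Without the pairing, 3 fibroblast genes and 1 smooth muscle gene were called, and smooth muscle calls numbered 4 without mouse 1192 and 1 without mouse 1199. The list of B and plasma cell markers had 2 tested genes and a median of 0.06, with 0 called by any of the 3 tools and 0 at an unadjusted p under 0.05. The part that the mix of cells plays in the Apol differences was not tested.

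Many apolipoproteins of other families carry lipids in blood and tissue fluid, though not every gene of the list used here does. Of 6 tested, 1 was called higher and 0 lower, with a median log2 fold change of 0.67. The called gene was Clu, or apolipoprotein J, a secreted chaperone (2.38 ± 0.44, adjusted p = 0.0395 in edgeR). It had 65.0, 36.6 and 49.9 CPM in polyps, against 7.58, 4.34 and 25.2 CPM in surrounding cecum. This call was lost without mouse 1119, without mouse 1192 and without the pairing by mouse. Apoe, the carrier of cholesterol in macrophages, had 0.94 ± 0.33 (adjusted p = 0.215).

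For each tested member, the 3 genes whose profile over the 6 libraries was most alike were taken as those with the smallest root mean square difference in centred log2 CPM, among 5772 genes of sufficient level. For Apol10a these were Slco2a1, a prostaglandin transporter, Synpo, an actin-associated protein, and Sectm1b, a ligand of the T cell protein CD7, at 0.22, 0.27 and 0.31, against a median of 1.00 over all genes compared. Slco2a1 had 15.6, 18.0 and 29.2 CPM in polyps, against 63.7, 62.7 and 62.4 CPM in surrounding cecum, and shared with Apol10a the highest polyp value in mouse 1199. For Apol9b they were Herc6, Rsad2 and Cmpk2, all interferon-inducible in mouse cells, at 0.40, 0.42 and 0.49, against a median of 1.68. Herc6 had 11.8, 0.987 and 6.26 CPM in polyps, against 10.5, 23.4 and 25.9 CPM in surrounding cecum, with its lowest value in the polyp of mouse 1192, where Apol9b had 0.

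For Apol7a the closest were Gm3054, March3, a ubiquitin ligase, and Sgk1, a kinase of epithelial sodium transport, at 0.26, 0.29 and 0.33, against a median of 0.82. For Apol6 they were Fkbp5, a co-chaperone of steroid receptors, Crebrf, a regulator of CREB3, and Sult1b1, a sulfotransferase, at 0.10, 0.11 and 0.12, against a median of 0.47. Between the members themselves the same measure ran from 0.56 for Apol7a and Apol6 to 1.47 for Apol7a and Apol9b. For each of the 4 tested members, the 3 genes named were closer to it than any of the other tested members. Those 3 were picked as the closest of all genes compared, so this outcome was nearly fixed in advance. It therefore cannot show whether the members share a profile. The value of 0.56 for Apol7a and Apol6 was below the median over all genes compared for Apol7a (0.82) and above that for Apol6 (0.47). These profiles share the 6 libraries and their depths, so likeness is given as a description.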

How the data were processed

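RNA was measured by sequencing in 6 libraries, a polyp and the surrounding cecum of each of 3 mice. Per the labels' protocols, RNA was treated with MICROBEnrich, which removes mammalian RNA, and with a RiboZero kit, and the mouse counts seem to come from that treated RNA, which the labels leave uncertain. The deposited tables hold raw whole-number counts for each gene, without normalization, from TopHat2 2.0.7, Bowtie 0.12.9 and HTSeq 0.5.3p9, per the submitters' processing notes. The sources used here do not give strand, read settings, annotation release or genome build, so the counts of similar Apol copies and of overlapping genes are uncertain. Nothing in the labels describes technical repeats, and counts of a tissue's replicates varied beyond sampling noise.

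Genes were tested with edgeR 4.0.16 in R 4.3.3 by the two-sided quasi-likelihood test with robust spread, TMM normalization (factors 0.593 to 1.43), a minimum count of 10 in filterByExpr (10960 genes kept) and Benjamini-Hochberg adjustment over all of them, called under 0.05. The common biological coefficient of variation was 34.3%, with 2 residual degrees of freedom per gene. Each SE was derived from this test, as the absolute log2 fold change over the square root of its F statistic. The mouse was a block, because the design is stated to be paired and titles carry the mouse number. Deviations from tissue means correlated at 0.0719, 0.127 and 0.159 within mice 1119, 1192 and 1199, and at -0.00294 or less between mice. With 3 pairs an exact sign test cannot reach the threshold, so no single-gene exact test is given. The procedure was tested on simulated counts. Floors of 3 counts cover counting error only.

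The members and all 13 gene lists were chosen with earlier results of these data known. Named genes were all members, the other Apol genes, the 4 or fewer genes of lowest p per list, the 3 genes most alike to each tested member, and the 3 coding genes on each side of the cluster (Zfp647, 1110038F14Rik, Mb, Myh9, Txn2 and Foxred2). Rbfox2, Gm20688, Zbtb46, Clec9a and the list genes at 0 counts (Ifng, Ifnb1, Ifnl2, Ifnl3, Tbx21, Batf3 and Cd209a) fall outside that rule and were named after their values were seen. Of the coding genes, Zfp647 and Mb had 0 counts, and 1110038F14Rik and Foxred2 did not pass the filter. Names, exon lengths, gene order and transcripts came from GENCODE M21, which named 32919 of 37991 identifiers, and promoters (250 bases before to 50 after the start, 27025 genes, 5 of 6 members) from RefSeq GRCm38.p6. Alignments used Biopython 1.88 and figures matplotlib 3.10.9, in Python 3.11.15.

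Alternatives were a fit with no replicate block, normalization by RLE or by upper quartile, genes above 1% of a library left out, no filter, a mean of at least 5 CPM, spread without robustness, DESeq2 1.42.0, limma-voom (limma 3.58.1), each mouse left out, and the Apol9 and Apol10 copies added.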

Additional observations from a re-analysis of the deposited data

How the results depend on the processing

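Apol10a was called lower in all 13 alternatives run, with log2 fold changes of -1.99 to -1.72, and no Apol gene outside the members was called in the 11 alternatives that tested any of them (with a mean of at least 5 CPM none was tested). Apol7a (-1.06 to -0.57), Apol6 (-0.91 to -0.53) and Apol9b (-3.46 to -0.65) stayed below 0 and were called in none. The members were chosen with values of these same libraries known. Their calls here therefore describe dependence on the processing only and are not read as support for a difference. Without the filter, Apol9a had -1.54 ± 1.34 and Apol10b 0.08 ± 3.39. The count of all genes called was 303. It was 87 with no replicate block, 753 with no filter on low counts and 541 in DESeq2, and leaving out 1 mouse gave 83 to 281. Calls in the interferon lists numbered 4. They were 0 with no replicate block, 14 with no filter and 8 in DESeq2, and leaving out 1 mouse gave 0 to 3. Calls in the cell type and apolipoprotein lists numbered 18. They were 7 with no replicate block, 30 with no filter and 28 in DESeq2, and leaving out 1 mouse gave 10 to 21. The cause of these shifts was not tested. Of the members, Apol9a, Apol9b and Apol10b rest on the fewest counts, with 0 to 68 in each library.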
